A study of Homo sapiens with 11 samples.

Results

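The 8 genes described here, UBB, VCP, UFD1, NPLOC4, RAD23B, UBQLN1, USP14 and UCHL5, encode proteins that make ubiquitin, draw ubiquitinated proteins out of complexes and membranes, carry them to the proteasome, and remove the ubiquitin chain there. They were chosen by gene symbol from the table of raw counts, where all 8 were found among 38557 genes, and all 8 were among the 14683 genes that passed the filter on low counts. Polyadenylated RNA was sequenced from MOLM-13 cells, a human acute myeloid leukemia line with a rearranged KMT2A gene, after 72 h of culture. The 11 libraries were 4 treated with the solvent DMSO, 4 treated with 1 µM of the Menin inhibitor MI-503, and 3 treated with 1 µM MI-503 plus 100 nM PR-957 (replicates 1, 2 and 4, called the combination here). PR-957, also known as ONX-0914, inhibits the immunoproteasome subunit PSMB8, and all 3 groups are the same cell line. No library with PR-957 alone was analysed here, so PR-957 was seen only on top of MI-503, and an effect of PR-957 by itself cannot be told apart from one that needs MI-503.

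Proteins marked with ubiquitin chains are degraded by the 26S proteasome, and many of them reach it in steps. The ATPase VCP, with its cofactor pair UFD1 and NPLOC4, pulls ubiquitinated proteins from the endoplasmic reticulum membrane and from complexes. Shuttle proteins such as RAD23B and UBQLN1 hold ubiquitin with one domain and the proteasome with another, and the proteasome-bound deubiquitinases USP14 and UCHL5 trim the chain. UBB encodes a polyubiquitin, several ubiquitin units in a row that are cut into single ubiquitins. The transcription factor NFE2L1 is known to raise proteasome genes when the proteasome is inhibited, through antioxidant response elements, and it is itself released from the endoplasmic reticulum with the help of VCP.

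The region upstream of each gene is shown first as a description of its letters, and no link to the changes below was tested. In RefSeq promoters of the GRCh38.p14 build (250 bases before to 50 after a start), 7 of the 8 genes had an entry; UFD1 did not. The letters TGACNNNGC, a core of the antioxidant response element, were searched on both strands. They were found in 5 of the 7 genes, in 13.3% of all 35116 promoter windows of this length and in 16.1% of 27305 genes. Each match is printed below with its flanks, 5′ to 3′ on the gene's strand, the matched letters in capitals. A match describes the letters and does not show that a factor binds there.
UCHL5, chr1:193059392-193059421, minus strand, first matched base at -51 from the start: gcgctgcaggTGACGGCGCccggaggctgt
VCP, chr9:35072795-35072824, minus strand, at -189: tgcggccaatTGACGTGGCgttactaggcg
UBQLN1, chr9:83708015-83708044, minus strand, at -76: cagccggggaTGACTCGGCgacgccgccag
UBB, chr17:16381301-16381330, plus strand, at -30 of one start and 21 after another: gagggcgaggTGACGCGGCgctgggccttt
USP14, chr18:158521-158550, plus strand, with the motif on the other strand, at -26: tttgcgtgttGCTGCGTCAtcgccagtggc

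A heat shock element of 3 inverted units, searched on both strands, was found in 0 of the 7 genes and in 0.608% of all genes. The letters CCAAT were found in 4 of the 7 (VCP, UBB, RAD23B and NPLOC4) and in 39.7% of all genes. The VCP window held CCAAT at 5 places, one of them directly before the TGACNNNGC match printed above. Among 28 genes of 26S proteasome subunits with an entry, 9 held TGACNNNGC and 17 held CCAAT. The entries of NPLOC4 start inside the gene and not at its outer end, so its window is that of an inner start. The UCHL5 match lies in the window of its innermost listed start, 193059360. The windows of its other listed starts, 193059510 and 193060076, hold no TGACNNNGC match.

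The libraries held 18891243 to 41153974 counted fragments, and the 8 genes together took 0.158 to 0.263% of them. The lowest count of any of the 8 genes was 660, for which counting alone gives a relative error of 3.89%. Levels are given as CPM, counts per 1000000 counted fragments after TMM scaling of the library sizes, and changes as log2 fold changes from the edgeR quasi-likelihood fit. P-values were adjusted by Benjamini-Hochberg over the whole table of tested genes, and a gene counted as called below 0.05. The labels do not say that the libraries came from separate cultures, so p-values measure the spread between these libraries, which may be technical. Myeloid markers were present in every library, with CD33 at 34.2 to 44.4 CPM and SPI1 at 217 to 332 CPM, and the T- and B-cell markers CD2 and MS4A1 were at 0. The summed level of 8 myeloid markers was 1273 to 1358 CPM with DMSO, 1927 to 2090 CPM with MI-503 and 2125 to 4603 CPM with the combination, and that of 12 markers of other cell types, most of it PECAM1 (46.5 to 183 CPM), which myeloid cells also express, was 49.26 to 60.1, 109.9 to 116 and 129.2 to 185.6 CPM; the part of these shifts in the results below was not tested. Between MI-503 and the combination, mean LYZ rose from 376 to 1640 CPM, the largest rise among the 8 myeloid markers. SPI1, CEBPA, ITGAM, CSF1R and CD68 were also higher, while MPO (216 to 130 CPM) and CD33 (42.3 to 39.7 CPM) were lower. Combination 1 stood somewhat apart, with 36 of 10041 genes more than 2-fold away from the other libraries of its group.

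With MI-503 alone, 7 of the 8 genes were lower than with DMSO and 0 were higher; NPLOC4 was not called. Of all tested genes, 29.3% were called lower and 22% higher in this comparison, 51.4% in all. All 7 had no overlap between the groups, which held for 29.1% of tested genes in that direction and for 21.2% in the other. The median log2 fold change of the 8 genes was -0.28, beside -0.03 over all tested genes. When PR-957 was added, 7 of the 8 were higher than with MI-503 alone and 1, UCHL5, was lower, where 23.6% of tested genes were called higher and 23.8% lower, 47.4% in all. The groups did not overlap for 6 of the 7 that were higher and for UCHL5, beside 23.8% and 23.7% of tested genes. The median of the 8 was then 0.59, beside 0.00406 over all tested genes. Against DMSO, 5 of the 8 were higher with the combination (VCP, UFD1, NPLOC4, UBQLN1 and USP14), 1 was lower (UCHL5) and 2 were not called (UBB and RAD23B), where 31.7% of tested genes were called higher and 32.8% lower, 64.5% in all. Those 6 called genes did not overlap between the groups, beside 29.3% of tested genes higher and 31.2% lower. These 3 comparisons share libraries, so they are not independent of each other. The 8 genes were chosen with earlier results of these data known. Their counts and medians beside those of all tested genes are therefore a description and not a test. Without combination 1, 6 genes instead of 7 were called higher in the combination against MI-503, and 6 instead of 7 lower with MI-503 against DMSO; the call that was lost was that of RAD23B in both. Each value is a share of the library's RNA, so fewer cells with the transcript and less of it per cell cannot be told apart.

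**Figure D1:**
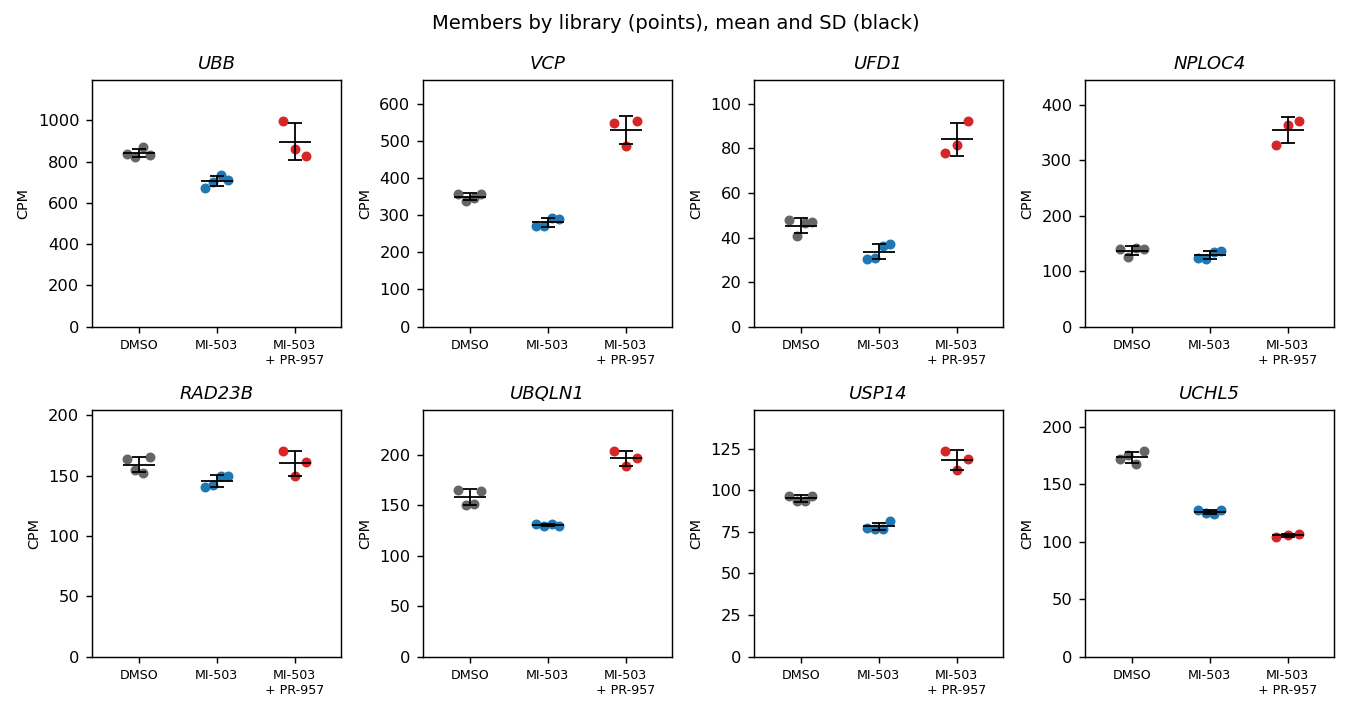
Level of each of the 8 genes in each library (points; y axis in CPM, one panel per gene, each starting at 0) in the 3 groups, with the group mean and SD drawn as a bar. NPLOC4 in the combination lies at 327 to 371 CPM, far above the other 2 groups, while UCHL5 steps down from DMSO through MI-503 to the combination.

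The polyubiquitin gene UBB lies on chromosome 17 at 16380793 to 16382745 of hg38, the build of all gene positions below, and its exons overlap those of 0 other genes. It was at 837, 823, 871 and 835 CPM in the 4 DMSO libraries, at 675, 703, 736 and 709.9 CPM in the 4 MI-503 libraries, and at 998, 863 and 829.9 CPM in combination 1, 2 and 4. Every MI-503 library was below every DMSO library, whereas the combination overlapped DMSO, with combination 1 the highest of all. UBB fell with MI-503 (log2 fold change -0.25, SE 0.05, adjusted p = 0.000618) and was higher in the combination than with MI-503 (0.35, SE 0.06, adjusted p = 8.48e-05). Against DMSO the combination did not pass the test (0.09, SE 0.06, adjusted p = 0.162). Without combination 4 that value was 0.14 with an adjusted p of 0.0284, and without combination 1 it was 0.03 with an adjusted p of 0.62, so this call depended on single libraries. Of 1181 windows of 100 exon bases of UBB, 49 occur more than 1 time in hg38, and fragments that aligned to several places were left out by the counting.

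VCP, on chromosome 9 at 35056064 to 35072668, encodes the ATPase itself. Its level was 357, 338, 348 and 358 CPM with DMSO, 270.0, 271, 292 and 291 CPM with MI-503, and 548, 488 and 555 CPM with the combination. The 3 groups did not overlap: the combination was highest, and MI-503 lowest. VCP fell by 0.32 on the log2 scale with MI-503 (SE 0.05, adjusted p = 2.76e-05) and was 1.89-fold higher in the combination than with MI-503 (log2 fold change 0.92, SE 0.05, adjusted p = 3.66e-10). Relative to DMSO it was higher by 0.60 (SE 0.05, adjusted p = 1.58e-08).

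UFD1, the smaller of the VCP cofactor pair, lies on chromosome 22 at 19449911 to 19479193. UFD1 was at 47.8, 40.5, 46.4 and 46.8 CPM with DMSO, 30.6, 31.0, 36.0 and 36.9 CPM with MI-503, and 78.1, 81.8 and 92.4 CPM with the combination. The groups again stood in the order MI-503, DMSO, combination, with no overlap. Its fall with MI-503 was -0.44 (SE 0.07, adjusted p = 0.000107). The combination was 2.50-fold above MI-503 (log2 fold change 1.32, SE 0.08, adjusted p = 6.63e-10) and 1.85-fold above DMSO (0.89, SE 0.08, adjusted p = 1.81e-08).

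NPLOC4, the partner of UFD1, lies on chromosome 17 at 81556885 to 81637148. In the DMSO libraries NPLOC4 was at 140.1, 126, 142 and 140.0 CPM, in the MI-503 libraries at 123, 123, 135 and 137 CPM, and in the combination at 327, 363 and 371 CPM. The DMSO and MI-503 libraries overlapped, and the combination libraries lay far above both. With MI-503 the log2 fold change was -0.08 (95% interval -0.20 to 0.03, adjusted p = 0.21). With the combination NPLOC4 was 2.74-fold above MI-503 (log2 fold change 1.45, SE 0.06, adjusted p = 8.14e-12) and 2.58-fold above DMSO (1.37, SE 0.06, adjusted p = 4.97e-12). Of all tested genes, 98.8% had a lower log2 fold change than NPLOC4 in the combination against MI-503, and 98.5% a lower one than UFD1.

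**Figure D2:**
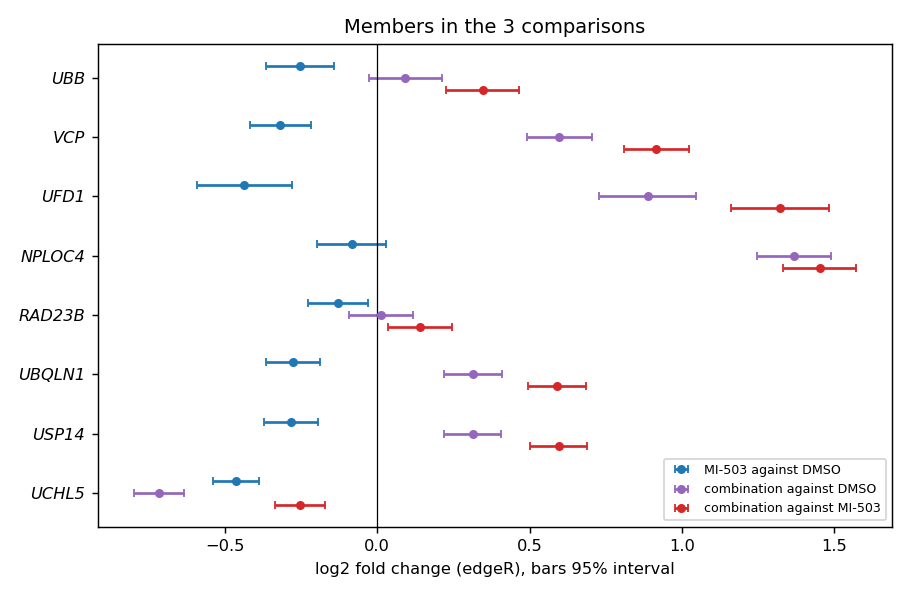
Log2 fold change (x axis) of each of the 8 genes (rows) in the 3 comparisons (colours), as points with their 95% intervals from the edgeR fit; the vertical line marks 0. NPLOC4 reached 1.45 and UFD1 1.32 in the combination against MI-503, and UCHL5 lies below 0 in all 3 comparisons.

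The shuttle gene RAD23B lies on chromosome 9 at 107283279 to 107332194. Of its exon bases, 8.02% are shared with LOC112268052, a locus on the opposite strand. Counting was unstranded and left out fragments that fell on both genes, so some RAD23B fragments may be missing. RAD23B was at 164, 155, 152 and 165 CPM with DMSO, at 141, 142, 150.0 and 149 CPM with MI-503, and at 170.4, 149 and 161 CPM with the combination. These ranges lie close together, and the combination overlapped both other groups. RAD23B passed the test with MI-503 (-0.13, SE 0.05, adjusted p = 0.0273) and in the combination against MI-503 (0.14, SE 0.05, adjusted p = 0.0261), but not against DMSO (0.01, 95% interval -0.09 to 0.12, adjusted p = 0.832). The first call was lost under 13 of 19 alternative settings and the second under 5, among them leaving out combination 1, which gave 0.07 with an adjusted p of 0.239. RAD23B was the member with the smallest change in the combination against MI-503, and 65.5% of all tested genes had a lower value.

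UBQLN1, a shuttle with a ubiquitin-like domain and a ubiquitin-binding domain, lies on chromosome 9 at 83659968 to 83707979 and shares 2.89% of its exon bases with LOC105376114 on the opposite strand. Its level was 165, 151, 151 and 165 CPM with DMSO, 131, 129, 131 and 129.6 CPM with MI-503, and 204, 189 and 197 CPM with the combination. The MI-503 libraries were within 2 CPM of each other, and no 2 groups overlapped. UBQLN1 fell by 0.28 with MI-503 (SE 0.04, adjusted p = 3.71e-05), and the combination was higher than MI-503 by 0.59 (SE 0.04, adjusted p = 2.24e-08) and higher than DMSO by 0.31 (SE 0.04, adjusted p = 9.53e-06).

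The deubiquitinase USP14, on chromosome 18 at 158557 to 214629, shares 5.67% of its exon bases with THOC1 on the opposite strand. USP14 was at 96.7, 93.3, 93.5 and 96.7 CPM with DMSO, 77.5, 76.8, 76.9 and 81.5 CPM with MI-503, and 123, 112 and 119 CPM with the combination. It stepped through the groups as UBQLN1 did. The changes of USP14 were -0.28 with MI-503 (SE 0.04, adjusted p = 2.61e-05), 0.60 for the combination against MI-503 (SE 0.04, adjusted p = 1.62e-08) and 0.31 against DMSO (SE 0.04, adjusted p = 7.65e-06).

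UCHL5, the other proteasome-bound deubiquitinase, lies on chromosome 1 at 193012254 to 193060140 and shares 6% of its exon bases with RO60 on the opposite strand. UCHL5 was at 172, 175, 168 and 179 CPM with DMSO, 127, 125, 124 and 127 CPM with MI-503, and 104, 106 and 107 CPM with the combination. It was the 1 member that was lower in every combination library than in every MI-503 library, and the 3 groups did not overlap. UCHL5 fell by 0.46 with MI-503 (SE 0.04, adjusted p = 2.06e-08) and by a further 0.25 when PR-957 was added (SE 0.04, adjusted p = 5.28e-05), which left it at 0.609 times the DMSO level (log2 fold change -0.72, SE 0.04, adjusted p = 1.01e-10). With MI-503, 8.12% of all tested genes had a lower log2 fold change than UCHL5. The TGACNNNGC letters printed above lie in the window of the innermost listed start of UCHL5. Windows of 4 members that were higher in the combination than with MI-503 hold such letters too. Whether the letters bear on these changes was not tested.

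**Figure D3:**
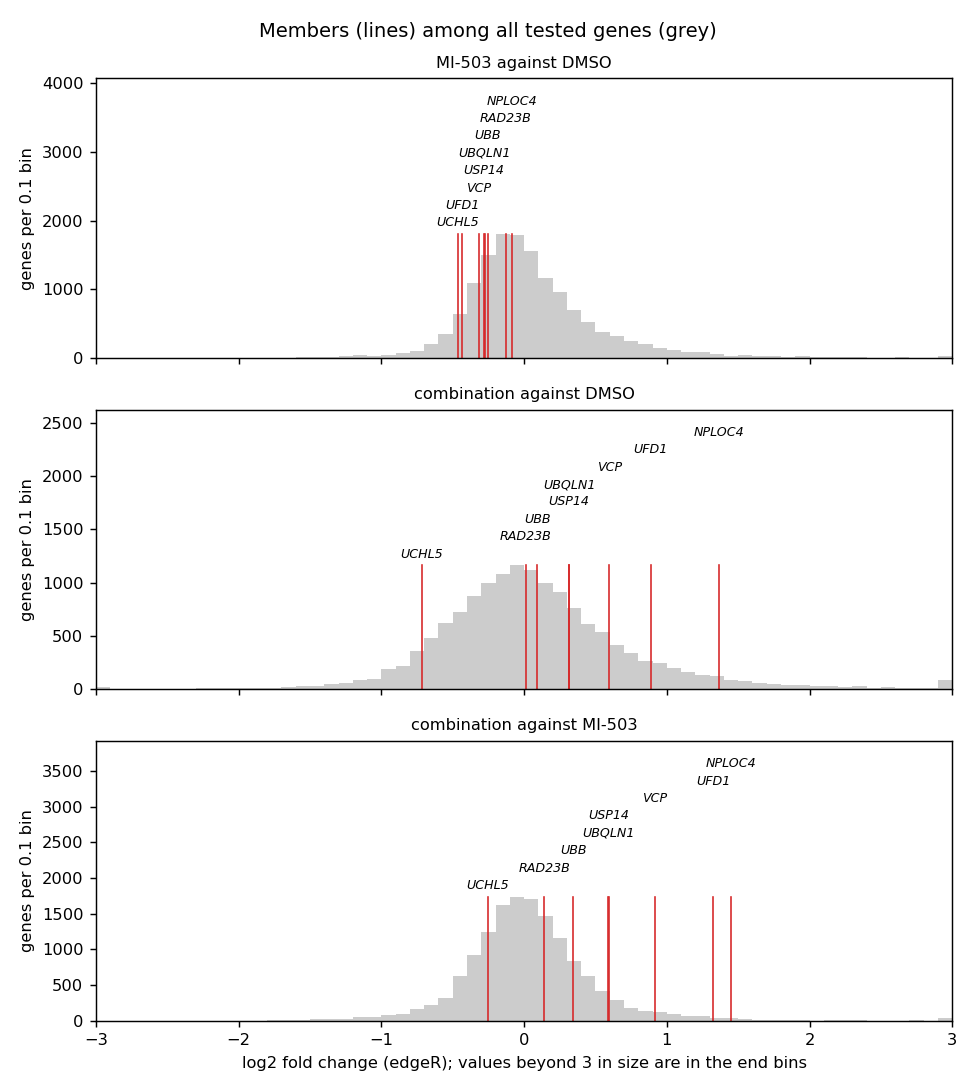
Histograms of the log2 fold change of all 14683 tested genes (grey, genes per bin) in the 3 comparisons, with the 8 genes as vertical lines. With MI-503 all 8 lines lie below 0; in the combination against MI-503, UFD1 and NPLOC4 lie in the right tail and UCHL5 to the left of 0.

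Levels of different genes were compared as CPM per kilobase of exon. The length was that of all annotated exons merged: 8473 bases for NPLOC4, 7879 for UCHL5 and 2049 for UFD1. It can exceed the length of the transcript present, so the order of genes and the size of a ratio between genes depend on the annotation. With DMSO, UBB was by far the highest at 535.3 CPM per kb, followed by VCP at 80.2, RAD23B at 36.2, UBQLN1 at 31.5, UFD1 at 22.1, UCHL5 at 22.0, USP14 at 19.1 and NPLOC4 at 16.2 CPM per kb. Only UFD1 and UCHL5 overlapped as neighbours in that order. With MI-503 the last 4 genes lay between 15.3 and 16.4 CPM per kb and each overlapped the next. With the combination NPLOC4 rose from last to the third place at 41.8 CPM per kb, beside UFD1 at 41.0 and UBQLN1 at 39.2, which with RAD23B at 36.4 overlapped as neighbours, and UCHL5 was last at 13.4 CPM per kb.

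Unequal changes between partners were then read as ratios of CPM per kilobase within each library, a choice made after the values had been seen. The exact two-sided permutation test was used for 15 tests in all (5 ratios, 3 comparisons). The smallest p that these group sizes allow is 0.0286. After Benjamini-Hochberg adjustment over the 15 it became 0.033, a value that depends on how many of the 15 reached 0.0286. The ratio of NPLOC4 to UFD1 was 0.731 ± 0.0183 with DMSO (SD, n = 4), 0.933 ± 0.0391 with MI-503 (n = 4) and 1.02 ± 0.0523 with the combination (n = 3). It was higher than DMSO in all libraries of both other groups. The ratio of UCHL5 to USP14 was 1.15 ± 0.0301, 1.02 ± 0.0219 and 0.566 ± 0.031 in the same order, so the balance of these deubiquitinase transcripts turned towards USP14. RAD23B to UBQLN1 went from 1.15 ± 0.0185 with DMSO to 1.27 ± 0.044 with MI-503 and 0.930 ± 0.0266 with the combination. NPLOC4 to VCP rose in both steps, from 0.202 ± 0.008 to 0.237 ± 0.00394 and 0.346 ± 0.0381. In 13 of the 15 tests the groups did not overlap and the exact permutation p was 0.0286. The exceptions were UFD1 to VCP with MI-503 against DMSO and NPLOC4 to UFD1 with the combination against MI-503. Each had an exact permutation p of 0.0857, also after adjustment. Some ratios share a gene and the comparisons share libraries, so the 15 tests are not independent. As the pairs were chosen on these same values, the p-values are a description and no separate support. The share of other gene pairs that separate in this way was not computed.

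**Figure D4:**
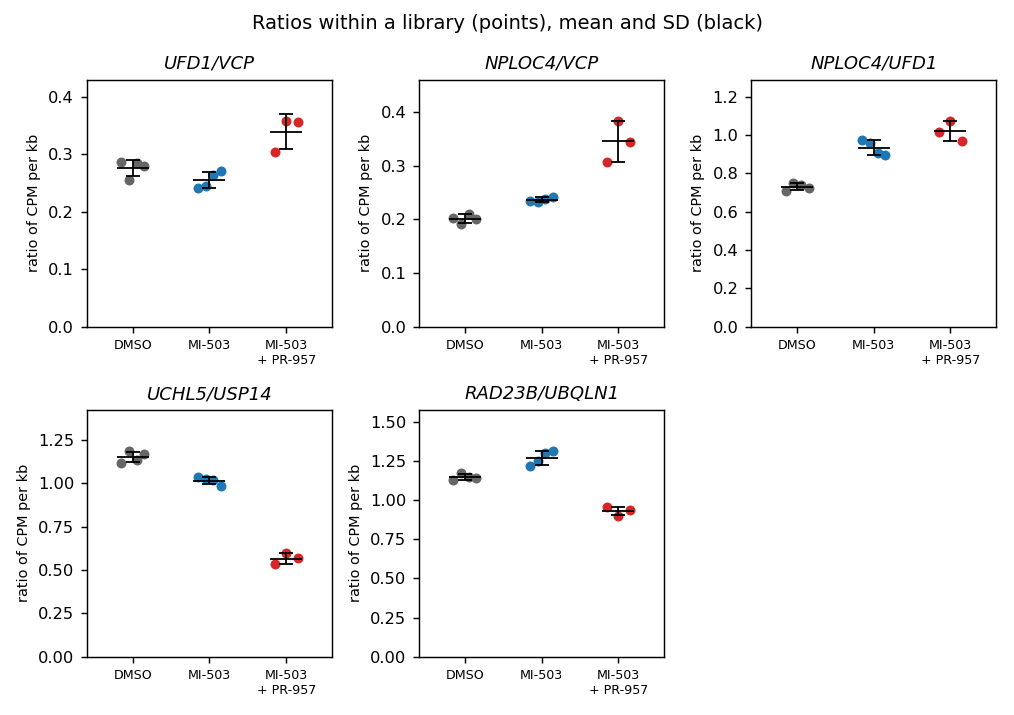
Ratio of the CPM per kilobase of a pair of genes within each library (points; y axis, no unit) for 5 pairs in the 3 groups, with the group mean and SD. UCHL5 to USP14 lies at 1.15 ± 0.0301 with DMSO and at 0.566 ± 0.031 with the combination.

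RPS27A, which encodes ubiquitin fused to a ribosomal protein, was lower in the combination than with MI-503 (-0.26, adjusted p = 0.00172), whereas UBB was higher. Of the exon bases of RPS27A, 25% are shared with other genes, so its level is uncertain. The ubiquitin-activating enzyme genes UBA1 and UBA6 were not called in the combination against MI-503 (-0.10, adjusted p = 0.0655, and 0.09, adjusted p = 0.326).

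Of 55 further tested genes in 5 lists (58 listed, of which UBXN10, SVIP and UCHL1 did not pass the filter), 29 were higher and 4 lower in the combination against MI-503, with a median of 0.15. With MI-503 against DMSO 6 were higher and 26 lower (median -0.11), and with the combination against DMSO 25 were higher and 18 lower (median 0.09). Over all tested genes, 23.6% were called higher and 23.8% lower in the combination against MI-503. The shares were 22% and 29.3% with MI-503 against DMSO, and 31.7% and 32.8% with the combination against DMSO. The 18 lower genes of the 55 were close to that last share. The list of VCP cofactors had 15 of 21 higher and 0 lower in the combination against MI-503 (median 0.21). Its 3 genes with the smallest adjusted p were NSFL1C, the p47 adaptor of VCP, at 1.38 (adjusted p = 4.21e-12), PLAA at 1.27 (adjusted p = 1.25e-10) and UBXN4 at 0.85 (adjusted p = 7.13e-10). In the list of ERAD membrane machinery (the ligases and channels that hand proteins of the endoplasmic reticulum to VCP), 4 of 11 were higher and 2 lower. There the ligase gene SYVN1 stood at 0.42 (adjusted p = 1.39e-05) and OS9 at 0.30 (adjusted p = 2.28e-05). DERL3 fell by 1.99 (adjusted p = 0.000213) at a very low level, 0.580 CPM with MI-503 and 0.138 CPM with the combination. SELENOS (higher) and EDEM1 (lower), named after their values were seen, also passed.

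Among other shuttles and ZFAND proteins 5 of 8 were higher and 1 lower in the combination against MI-503. The shares over all tested genes were 23.6% and 23.8% in that comparison. ZFAND5 stood at 0.94 (adjusted p = 5.31e-11), ZFAND2A at 0.95 (adjusted p = 2.99e-08) and MIDN, whose protein brings substrates to the proteasome without ubiquitin, at 0.42 (adjusted p = 6.65e-06). The paralogs of UBQLN1, also named after their values were seen, gave different values: UBQLN4 fell by 0.25 (adjusted p = 0.000184) and UBQLN2 gave 0.02 (adjusted p = 0.852). ZFAND2B was also higher. Of the proteasome-associated ligases and other deubiquitinases 4 of 10 were higher and 0 lower, with ECPAS at 0.97 (adjusted p = 1.25e-10), TXNL1 at 0.69 (adjusted p = 2.39e-08) and USP5 at 0.39 (adjusted p = 3.34e-06); USP7 was the other. With MI-503 against DMSO 9 of these 10 were lower, where 29.3% of all tested genes were called lower. All 31 tested genes of the 26S proteasome subunits were higher in the combination against MI-503 (median 0.89) and all 31 were lower with MI-503 against DMSO (median -0.35). By library, the median of the 8 members relative to the DMSO mean was -0.31 to -0.26 with MI-503 and 0.25 to 0.37 with the combination, and that of the proteasome subunits was -0.40 to -0.28 and 0.51 to 0.65.

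**Figure D5:**
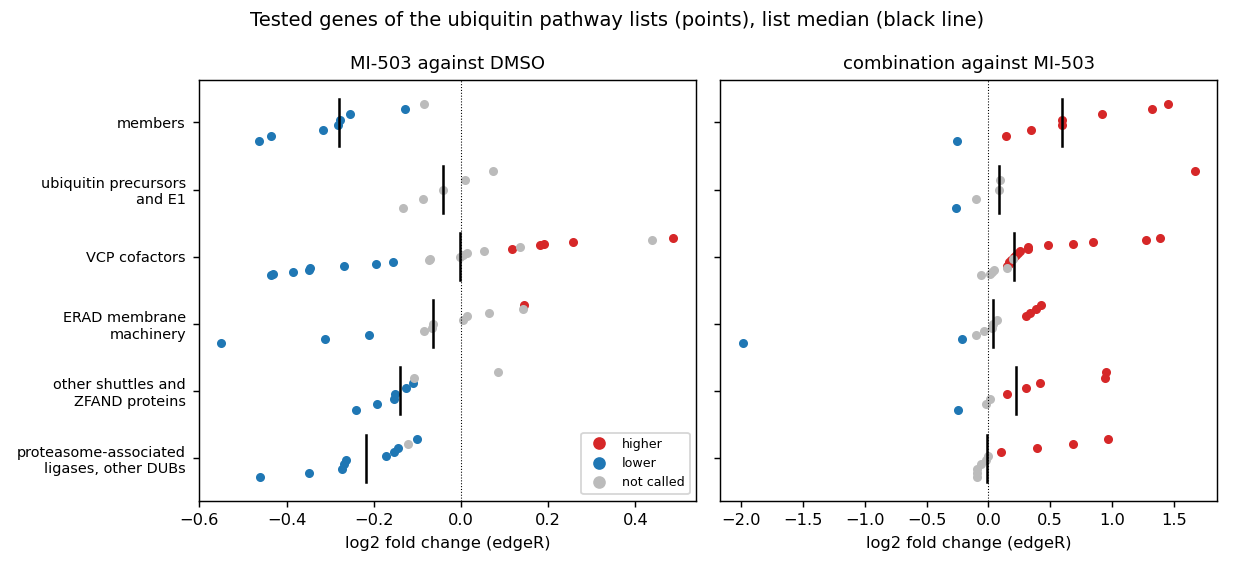
Log2 fold change (x axis) of each of the 8 members and each tested gene of the 5 pathway lists (rows) with MI-503 against DMSO (left) and the combination against MI-503 (right); colours show genes called higher, called lower and not called, and the black lines the list medians. Of the members, 8 lie below 0 on the left and 7 lie above 0 on the right, while 4 of the 5 lists spread on both sides of 0 in both panels.

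The members also differed in which other genes they resembled. Likeness was the root mean square difference of log2 CPM relative to the DMSO mean over the 11 libraries, among 10033 genes whose mean was 5 CPM or more, 31 of them 26S subunits. The nearest genes to VCP were NRIP3 (0.03) and the proteasome subunit gene PSMD13 (0.04), and 14 of its 20 nearest genes were 26S subunits. Nearest to UFD1 were ADRM1 (0.08) and PSMD2 (0.10), both 26S subunits, with 13 of the 20. USP14 had FANK1 (0.04) and PSMD7 (0.06), with 4 of 20, and UBQLN1 had PSMD7 (0.06) and FANK1 (0.06), with 3 of 20. For NPLOC4, UBB, RAD23B and UCHL5 the count was 0 of 20, which with so few subunits among the candidates sets them apart from no other gene. NPLOC4 was nearest to ACADVL (0.12) and PPP1R15A (0.12), UBB to DDX27 (0.05) and SGPL1 (0.05), RAD23B to INO80 (0.03) and IREB2 (0.04), and UCHL5 to SUCLG2 (0.03) and ATIC (0.04). Among the members, UBQLN1 and USP14 were the closest pair (0.04) and NPLOC4 and UCHL5 the farthest apart (1.12). These distances describe 11 libraries and carry no test.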

How the data were processed

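Polyadenylated RNA from 11 MOLM-13 libraries was sequenced as paired 150-base reads. Per the labels and methods, the authors trimmed with Trimmomatic 0.39, aligned to hg38 with STAR 2.7.10a, filtered the alignments by a rule not given in the sources used here, and counted fragments per gene with featureCounts 2.0.1 on RefSeq exons. The deposited values are raw counts, unstranded, with multi-mapping and multi-gene fragments left out; the joined and per-library tables differed in 0 cells. The authors' tables of differential expression hold fold changes and p-values and were not used.

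Genes were filtered with edgeR's filterByExpr (minimum count 10), scaled by TMM (factors 0.956 to 1.06) and tested with edgeR 4.0.16 quasi-likelihood F-tests in R 4.3.3, one fit over the 3 groups with 8 residual degrees of freedom and a biological coefficient of variation of 6.14%. The study's own test, DESeq2 (here 1.42.0), limma-voom (limma 3.58.1), other scalings and filters, a replicate block and leaving out each library were alternatives. In simulated data for the combination against MI-503 (14445 genes) the fit recovered 99% of 100 genes changed by 0.5 and 100% of 100 changed by 1 on the log2 scale. Every simulated gene had the same setting for the spread between libraries, and only genes at 5 CPM or more were changed. Smaller changes and a library that stands apart were not simulated. Members and lists were chosen with earlier results of these data known. The named genes were all members, the list of ubiquitin precursors and E1 enzymes, from each other list the 3 genes whose adjusted p was lowest in the combination against MI-503, and the 2 genes nearest to each member. The deviations of same-numbered MI-503 and combination libraries correlated at over 0.1 in all 3 pairs, but some differently numbered pairs did so too. The labels do not state a pairing, and the main fit and the ratio tests did not pair libraries. Intervals are at 95%. Exon bases recurring in the genome were counted as exact 100-base matches in hg38. GRCh38.p14 and hg38 share chromosome coordinates. Some genes of these lists are counted but not reported by name here.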

Additional observations from a re-analysis of the deposited data

Results flagged for a closer look

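Each of the 8 genes was checked in the 2 groups of 4 libraries for 1 library far from the other 3 (Dixon's ratio, the gap to the nearest library over the whole range, with a critical value of 0.829). Of 16 groups checked, 2 passed, and chance alone passes about 1 in 20. NPLOC4 in DMSO passed because DMSO 2, at 126 CPM, lay below the other 3 libraries at 140.0 to 142 CPM (ratio 0.8695). USP14 in MI-503 passed because MI-503 4, at 81.5 CPM, lay above the other 3 at 76.8 to 77.5 CPM (ratio 0.8521). For these libraries 1 and 0 of 10041 genes, respectively, were more than 2-fold away from the rest of the group. That threshold is too wide to show a shift across genes as small as these departures. DMSO 2 was also the lowest DMSO library for UBB, VCP, UFD1, UBQLN1 and USP14, but not for RAD23B and UCHL5.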

How the results depend on the processing

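Under 19 alternatives the 24 member changes gave 433 values with the same direction and call, 18 that lost the call, 3 that gained it and 2 that turned direction. The 2 were RAD23B in the combination against DMSO, at -0.00752 without DMSO 3 and -0.0151 without combination 1, neither called; leaving out 1 library gave -0.0151 to 0.0592. Upper-quartile scaling and a filter of at least 5 CPM moved the member median from -0.28 to -0.217 and -0.209 with MI-503 and from 0.31 to 0.383 and 0.386 with the combination against DMSO; fitting only the 2 groups gave -0.232 with MI-503. Leaving out 1 library gave -0.295 to -0.235 with MI-503 (the highest without combination 1) and 0.537 to 0.603 in the combination against MI-503. Of the pathway genes, 16 instead of 26 were lower with MI-503 and 11 instead of 18 in the combination against DMSO under both the upper-quartile scaling and the 5 CPM filter, and 10 instead of 6 were higher with MI-503 under the 5 CPM filter and when only the 2 groups were fitted. Leaving out 1 library gave 4 to 10 higher with MI-503 (10 without combination 1) and 4 to 8 lower in the combination against MI-503 (7 without combination 1, 8 without combination 4). UBB in the combination against DMSO was called with upper-quartile scaling (0.16, adjusted p = 0.0213) and the 5 CPM filter (0.16, adjusted p = 0.016), over a range of adjusted p from 0.016 to 0.62. RAD23B ranged from 0.0213 to 0.252 with MI-503 against DMSO and from 0.0155 to 0.239 in the combination against MI-503. Upper-quartile scaling also moved the median over all tested genes with MI-503 against DMSO, from -0.0284 to 0.0337. With the combination against DMSO that median moved from 0.0128 to 0.0817. Under the 5 CPM filter the medians over all genes were 3.95e-07 and 0.0147 in these comparisons. The cause of these shifts was not tested.

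The deviations of 10 same-numbered pairs of libraries from their group means correlated at -0.252 to 0.285, and 6 pairs were over 0.1. The 3 pairs of MI-503 and combination libraries were all over 0.1 (0.141 to 0.211), while the pairs with DMSO were mixed. Differently numbered libraries reached similar sizes, at 0.269 for MI-503 3 with combination 4 and -0.274 for MI-503 1 with combination 4. These correlations therefore do not show a pairing. With the replicate number as a block no member call changed: 7, 6 and 8 members were called in the 3 comparisons, with medians of -0.28, 0.31 and 0.58.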
